A study of Mus musculus with 10 samples.

Results

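These results compared wildtype alveolar type 2 (AT2) lineage cells that shared a lung with mutant cells, 2 weeks after induction, with cells of lungs that carried no mutant cells. The neighbour group held 2 libraries, r1 and r2, of YFP+ cells from Sftpc-CreERT2; Red2Kras mice. In these mice one recombination outcome gives RFP+ mutant cells and another gives YFP+ cells that stay wildtype. The comparison group held the RFP+ library and the YFP+ library of Sftpc-CreERT2; R26R-Confetti mice, in which both colours are wildtype. All 4 libraries were of EpCAM+ cells sorted from distal lung, after 3 doses of 0.2 mg tamoxifen per g body weight in adult mice of both sexes. Cre is driven by Sftpc, a surfactant gene of AT2 cells, so the labelled cells are AT2 cells and their progeny. The labels give no time for Confetti, and the study's methods place it 2 weeks after induction, as 1 preparation from which both colours were sorted. Lungs were pooled within each sample, so the libraries do not resolve single animals and the p-values measure only the spread between pooled preparations, which may be partly technical.

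The 4 libraries were chosen by their labels out of 10 in the series. A barcode was kept as a cell when it held at least 1000 genes, at most 50000 unique molecular identifiers (UMIs, each marking 1 captured RNA molecule), at most 15% mitochondrial UMIs and no UMI of Ptprc, the pan-leukocyte gene. This left 13479 of the 30599 kept cells of the series. Confetti RFP gave 3914 cells, Confetti YFP 4121, neighbour library r1 4306 and neighbour library r2 1138. UMIs were summed over the cells of each library, and levels are given as CPM, the usual count scale in which the autosomal UMIs of every library are brought to 1 fixed total, here after scaling by the trimmed mean of M values (TMM).

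AT2 cells make and recycle pulmonary surfactant and act as the stem cells of the alveolus. After injury they can renew themselves, or pass through an acute phase-like primed state marked by Lcn2 and Lrg1 and a keratin-rich transitional state marked by Krt8 and Cldn4 before becoming flat type 1 (AT1) cells. Lcn2 and the orosomucoids are acute phase proteins, made by epithelia and liver when inflammatory cytokines signal through STAT3 and C/EBP factors. Interferons act through STAT and IRF factors on a separate set of genes, which includes the antigen presentation machinery of major histocompatibility complex (MHC) class I.

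The libraries differed in depth and purity. Autosomal UMIs came to 15440142, 13420961, 24977350 and 7645088 in Confetti RFP, Confetti YFP, r1 and r2, and the median cell held 4000.5, 3251, 5833.5 and 6577 UMIs. The median mitochondrial share of UMIs was 4.17%, 3.69%, 2.61% and 2.20% in the same order, higher in both Confetti libraries. Before the Ptprc filter, 34.8% of r2 barcodes of passing quality held a Ptprc UMI, against 1.34% to 3.13% in the other 3 libraries. The 14 tested macrophage markers summed to 2024 CPM in r2 and 71.6 to 98.7 CPM elsewhere. A marker gate, which removed every barcode with at least 2 different genes of an immune, endothelial, mesenchymal or ciliated list, took out 12% of r2 cells and 2.35% to 4.39% elsewhere, and left macrophage sums of 22.5 to 31.1 CPM. The 10 endothelial markers stood at 221 and 309 CPM in Confetti and at 91.6 and 67.1 CPM in the neighbours, and at 20.9 to 45.3 CPM in all 4 libraries with the gate. The 6 airway secretory genes summed to 6088, 9735, 2289 and 17817 CPM, nearly all of it Scgb1a1, and Sftpc was found in 99.9%, 99.9%, 100% and 92.0% of cells. Lymphocyte markers summed to 36.9 to 54.1 CPM and to 136 CPM in r2, and ciliated markers to 121 to 256 CPM. Erythroid markers summed to 7.85 to 617 CPM and the 2 tested basal markers to at most 1.38 CPM. The 10 mesenchymal markers stood at 64.35 and 78.4 CPM in Confetti and at 47.1 and 30.4 CPM in the neighbours. The neutrophil and monocyte list summed to 4797, 3765, 2233 and 1363 CPM, of which Lyz1, whose sequence is close to the AT2 gene Lyz2, made up 4764, 3697, 2175 and 1141 CPM. By chromosome X and Y genes, all sexed Confetti cells were female, as were 26.4% of sexed cells in r1 and 0.47% in r2. The Confetti colours shared 3 barcodes and the neighbour libraries 2. Sex of the pooled mice, preparation and group therefore cannot be told apart across all cells.

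No gene passed the main test of the group difference. In several lists, most members stood on the same side of both Confetti libraries in both neighbour libraries, and no list was tested as a set. Of 29100 autosomal genes, 14342 were abundant enough to be tested. The main test was edgeR's quasi-likelihood test over all 10 libraries of the series in 6 groups, in which the Red2Kras pairs supply the spread. It called 0 genes (0.0%) at an adjusted p under 0.05 after Benjamini-Hochberg adjustment, with 586 genes at an unadjusted p under 0.05, of which 457 were higher and 129 lower in the neighbours. The smallest edgeR adjusted p was 0.501, shared by Pdlim4, Apoa1, Hist1h1b and D930048N14Rik, and every gene named below other than Pdlim4 stood at 0.805 or above. DESeq2 with the same design called 43 genes, 34 higher and 9 lower. An edgeR fit of the 4 libraries as 2 arms, which takes the Confetti colours as replicates of each other, called 20 genes, and 183 when the marker gate was applied.

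Genes were also described by a fixed fold, with no test. A gene was called separated when both neighbour libraries stood at least 2-fold above, or at least 2-fold below, both Confetti libraries, each library being floored at its own level of 3 UMIs. By this rule 370 genes (2.58%) were higher and 259 genes (1.81%) were lower, and these shares are the background against which the counts below are read. With no fold required, both neighbour libraries stood above both Confetti libraries in 23.9% of genes and below both in 25.7%, which is the background for counts of members that did not overlap. In 57 of the 370 at least 1 neighbour library held 3 or fewer UMIs, and 313 remained when more than 3 were required. Of the 370, 297 stayed separated with the marker gate, while of the 259 only 98 did. The gene-to-gene spread between replicates was wide: the median absolute log2 difference was 0.208 between the Confetti colours, 0.447 between r1 and r2, and 0.363 between the group means. With only r1 as the neighbour library the counts were 571 higher and 763 lower, and with only r2 they were 1547 and 996. Dropping Confetti YFP gave 585 higher, and dropping Confetti RFP gave 537 lower.

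**Figure D1:**
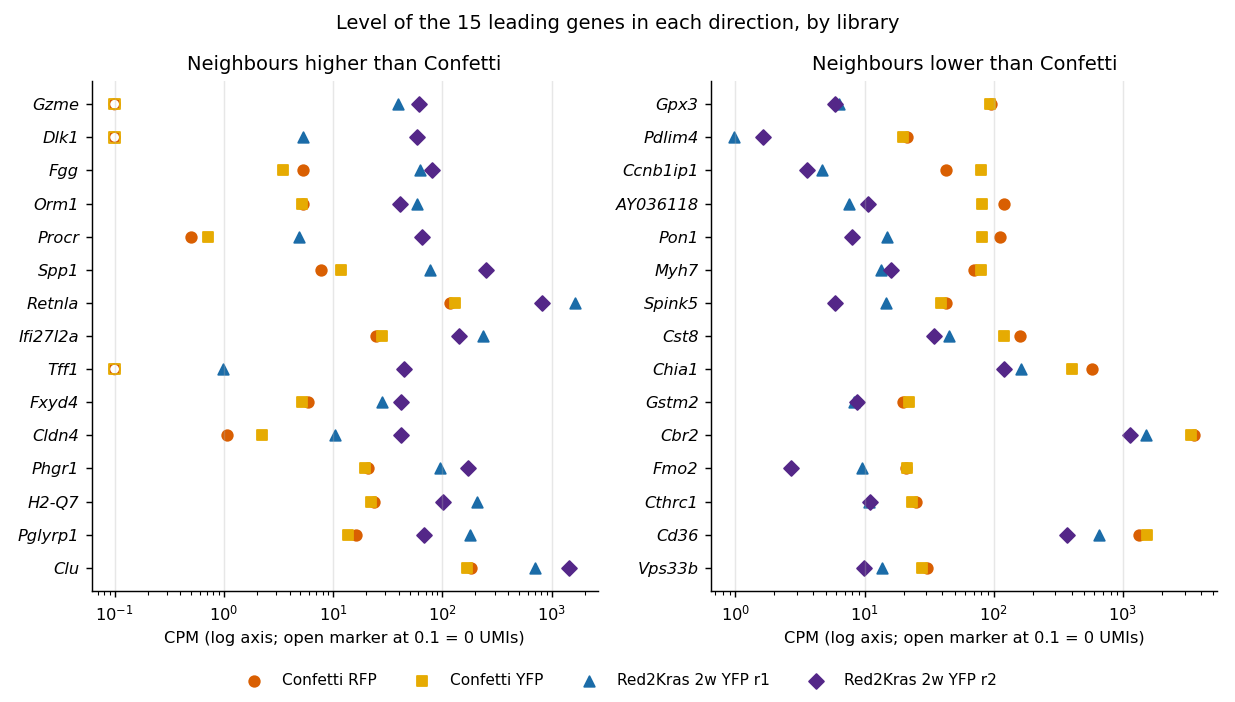
Level in CPM (log axis) of the 15 leading genes in each direction, with 1 marker for each of the 4 libraries and open markers at 0.1 for libraries with 0 UMIs. In every gene shown both neighbour libraries lie beyond both Confetti libraries, and for Dlk1, Procr and Tff1 the neighbour libraries lie more than 10-fold apart.

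The leading genes were taken by a fixed rule: separated with and without the marker gate, at least 20 CPM in the higher group, and ranked by the smallest of the 4 pairwise ratios. The 15 leading higher genes were Gzme, Dlk1, Fgg, Orm1, Procr, Spp1, Retnla, Ifi27l2a, Tff1, Fxyd4, Cldn4, Phgr1, H2-Q7, Pglyrp1 and Clu. The 15 leading lower genes were Gpx3, Pdlim4, Ccnb1ip1, AY036118, Pon1, Myh7, Spink5, Cst8, Chia1, Gstm2, Cbr2, Fmo2, Cthrc1, Cd36 and Vps33b. As the plot of leading genes by library shows, some higher genes had tight pairs of values and others had neighbour libraries far apart. The cells that held each gene were counted for that reason.

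Most acute phase and primed AT2 genes stood higher in the neighbours. Of the 20 genes of this list, 8 were separated higher and 0 lower, 15 stood above both Confetti libraries in both neighbour libraries (23.9% of all genes did), and 0 passed the main test. The median of the mean pairwise log2 ratio was 1.02, against -0.02 over all genes tested. The promoters of 4 of the 8 separated members are shown first, from RefSeq on build GRCm38.p6, as 250 bases before to 50 bases after the annotated start. They are given because the acute phase genes are textbook targets of C/EBP factors, whose palindromic motif TTGCGCAA was searched for; as a palindrome it reads the same on both strands.
Orm2, chr4:63362199-63362498, plus strand: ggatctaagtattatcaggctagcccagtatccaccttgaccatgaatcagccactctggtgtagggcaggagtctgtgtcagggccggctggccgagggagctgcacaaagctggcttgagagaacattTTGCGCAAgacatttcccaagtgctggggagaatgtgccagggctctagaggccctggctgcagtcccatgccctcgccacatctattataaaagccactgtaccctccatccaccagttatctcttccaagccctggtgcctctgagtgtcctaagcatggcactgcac
Ptges, chr2:30903248-30903547, minus strand: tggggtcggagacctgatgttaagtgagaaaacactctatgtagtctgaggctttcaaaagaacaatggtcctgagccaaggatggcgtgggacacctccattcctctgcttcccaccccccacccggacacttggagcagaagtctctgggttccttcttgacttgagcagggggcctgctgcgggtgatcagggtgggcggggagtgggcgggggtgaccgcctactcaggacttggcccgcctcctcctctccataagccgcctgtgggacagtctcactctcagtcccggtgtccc
Lcn2, chr2:32387690-32387989, minus strand: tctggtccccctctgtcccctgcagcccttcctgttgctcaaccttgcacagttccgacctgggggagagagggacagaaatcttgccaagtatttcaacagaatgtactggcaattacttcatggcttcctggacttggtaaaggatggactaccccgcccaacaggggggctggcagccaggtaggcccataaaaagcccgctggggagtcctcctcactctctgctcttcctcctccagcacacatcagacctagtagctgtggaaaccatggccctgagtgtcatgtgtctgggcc
Lrg1, chr17:56121897-56122196, minus strand: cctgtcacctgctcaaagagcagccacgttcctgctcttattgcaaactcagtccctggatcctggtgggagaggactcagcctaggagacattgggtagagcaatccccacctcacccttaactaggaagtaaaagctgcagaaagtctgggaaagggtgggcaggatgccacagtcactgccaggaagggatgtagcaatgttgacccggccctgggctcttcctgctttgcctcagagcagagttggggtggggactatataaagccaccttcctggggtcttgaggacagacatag
Capitals mark the motif, which lies 120 bases before the start of Orm2 and is not among the letters of the other 3 windows. Of the 8 separated members, 6 had a promoter entry, and 1 of those 6 held the motif. Among all promoters of the same length, 60 of 32851 (0.183%) held it.

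Lcn2, which encodes an iron-siderophore binding protein and lies at chr2:32384633-32388252, was the most abundant member. It stood at 2242 CPM in Confetti RFP and 1866 CPM in Confetti YFP, and at 7429.8 CPM in r1 and 6499 CPM in r2. The neighbour libraries lay 2.90-fold to 3.98-fold above the Confetti libraries, and the fitted log2 difference was 1.77 (SE 0.61, edgeR adjusted p = 0.805). Lrg1, a secreted glycoprotein that modulates TGF-beta signalling, stood at 675 and 596 CPM in Confetti and at 1988 and 2270.2 CPM in the neighbours. Its neighbour values lay close together and at least 2.94-fold above Confetti.

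Orm1, an orosomucoid, stood at 5.27 and 5.17 CPM in Confetti and at 58.7 and 40.8 CPM in the neighbours, a 7.74-fold to 11.3-fold difference. Orm2, its neighbour on the chromosome, stood at 0.125 and 0.327 CPM in Confetti and at 5.06 and 2.96 CPM in the neighbours. These genes are near-identical copies, so the division of UMIs between them is uncertain. The remaining separated members had smaller folds. Cxcl17, a mucosal chemokine, stood at 68.2 and 58.4 CPM in Confetti and at 217 and 199.9 CPM in the neighbours. Ptges, which makes prostaglandin E2, stood at 33.3 and 30.9 CPM in Confetti and at 88.2 and 136 CPM in the neighbours. Slpi, an antiprotease, and Il4ra, the interleukin-4 receptor chain, lay 2.51-fold to 3.76-fold and 2.53-fold to 3.24-fold above Confetti. Il33, an alarmin, stood at 361 and 335 CPM in Confetti and at 1048 and 561 CPM in the neighbours, higher but short of the fold rule. Not every member followed: Saa3 stood at 6.08, 2.42, 10.6 and 1.63 CPM in Confetti RFP, Confetti YFP, r1 and r2, so that its groups overlapped.

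Outside the list, 2 secreted genes showed the same shape. Fgg, the fibrinogen gamma chain at chr3:83007724-83015049, stood at 5.27 and 3.47 CPM in Confetti and at 62.8 and 80.8 CPM in the neighbours, which is 11.9-fold to 23.3-fold higher (log2 difference 4.07, SE 1.23). Retnla, a resistin-like protein known from type 2 immune responses, stood at 116 and 130.2 CPM in Confetti and at 1622 and 805 CPM in the neighbours, 6.18-fold to 13.9-fold higher. Fxyd4, a regulator of the sodium pump, stood at 5.9 and 5.17 CPM in Confetti and at 28.1 and 41.5 CPM in the neighbours. Phgr1 stood at 20.9 and 19.7 CPM in Confetti and at 95.1 and 173 CPM in the neighbours. In the 4-library edgeR fit with 2 arms, which counts the 1 Confetti preparation as 2 replicates, Fgg and Orm1 had an adjusted p of 0.0259, Fxyd4 of 0.0494, Retnla of 0.0577 and Phgr1 of 0.0598.

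For Lrg1, Fgg and Orm1 the UMIs were spread over many cells. Lrg1 had a UMI in 53.4% of Confetti RFP cells (95% Clopper-Pearson interval 51.8% to 55.0%) and 50.9% of Confetti YFP cells (49.3% to 52.4%), and in 85.3% of r1 cells (84.3% to 86.4%) and 78.8% of r2 cells (76.3% to 81.2%). Such intervals cover counting error only. With every cell thinned to 2000 UMIs the 4 shares were 40.2%, 41.5%, 75.1% and 69.3%. Fgg had a UMI in 1.48% and 0.898% of Confetti cells and in 16.6% and 20.1% of neighbour cells, and in 0.819%, 0.634%, 7.47% and 8.79% after thinning. Orm1 had a UMI in 1.84% and 1.75% of Confetti cells and in 19.3% and 14.9% of neighbour cells. In r2, barcodes with a Ptprc UMI should lack these genes. At a median of 7256 UMIs they had Fgg in 0.493%, Orm1 in 0.329% and Lcn2 in 6.91% of cases, so the levels in the r2 cells exceeded that background. For these genes no such share is given in the other libraries, nor for Lrg1 in any. The shares of Lrg1, and all shares outside r2, are therefore read without a background. Retnla was less even: it had a UMI in 13.2%, 11.7%, 49.2% and 25.1% of cells, and the 5 cells with the most Retnla held 41.6% of its UMIs in r2 and 32.1% in Confetti YFP. Lcn2 itself was found in 91.8%, 90.5%, 97.3% and 86.0% of cells, so its share did not separate the groups although its level did. In summed UMIs, more cells with a gene and more RNA per cell cannot be told apart, and the shares are given for that reason.

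**Figure D2:**
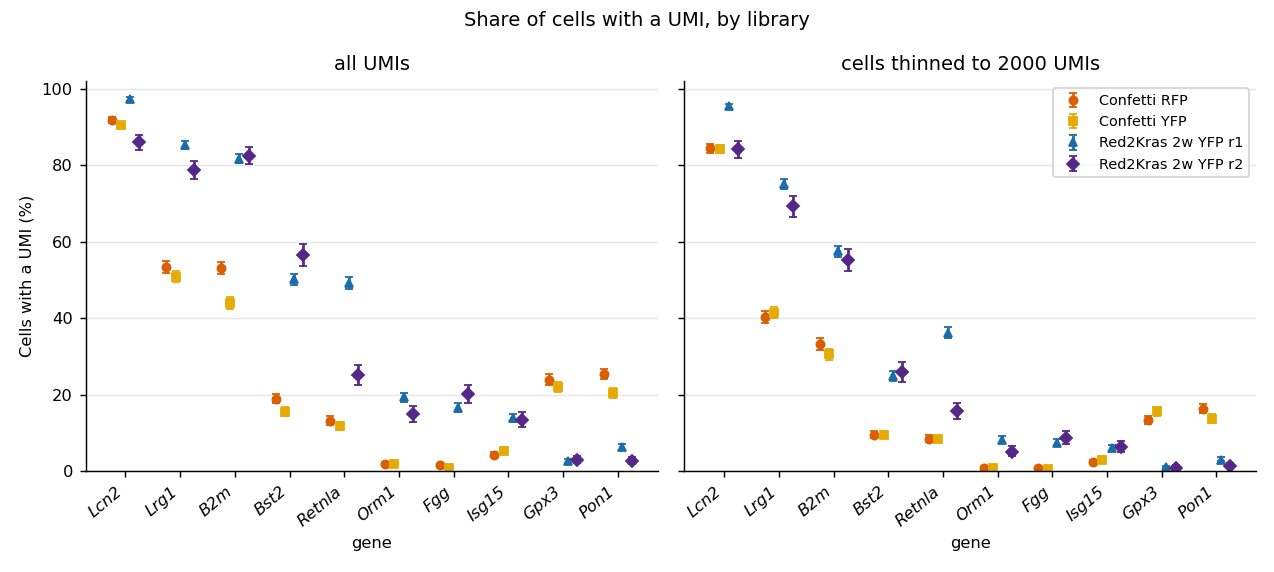
Share of kept cells with at least 1 UMI of 10 genes in the 4 libraries, with exact 95% intervals, from all UMIs (left) and after thinning each cell to 2000 UMIs (right). Lrg1, B2m, Bst2, Orm1, Fgg, Retnla and Isg15 lie higher in both neighbour libraries and Gpx3 and Pon1 lower, with and without thinning, while Lcn2 in r2 lies below or level with Confetti.

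Most interferon-responsive genes stood higher as well. Of 23 genes on the list, 6 were separated higher and 0 lower, 18 stood above both Confetti libraries in both neighbour libraries, beside 23.9% of all genes, and 0 passed the main test. The median log2 ratio was 1.07, and with the marker gate it was 1.90. Bst2, which tethers budding virus particles to the cell, was the most abundant of the 6, at 59.8 and 54.5 CPM in Confetti and 204 and 232 CPM in the neighbours. The neighbour values lay 3.42-fold to 4.25-fold above Confetti (log2 difference 1.93, SE 0.61). Isg15, a ubiquitin-like modifier, stood at 13.9 and 18.2 CPM in Confetti and at 53.7 and 65.7 CPM in the neighbours. Zbp1, a nucleic acid sensor, stood at 1.51 and 0.982 CPM in Confetti and at 14 and 11.3 CPM in the neighbours, the widest fold of the list. Usp18, Rsad2 and Gbp3 were the other separated members, with lowest pairwise folds of 2.56, 2.89 and 3.94 at levels of at most 7.11 CPM. Irf7, a transcription factor of the pathway, lay 1.65-fold to 2.09-fold above Confetti. Ifi27l2a, an interferon-inducible gene with a close paralogue, stood at 24.6 and 28 CPM in Confetti and at 235 and 142 CPM in the neighbours, and r2 stood at 81.6 CPM with the marker gate.

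The listed MHC class I genes stood higher in the neighbours too. All 14 members lay above both Confetti libraries in both neighbour libraries, beside 23.9% of all genes, 4 were separated at least 2-fold, and the median log2 ratio was 0.92. B2m, the invariant light chain of class I molecules, stood at 252 and 212 CPM in Confetti and at 738 and 630.1 CPM in the neighbours, 2.50-fold to 3.49-fold higher. The other 3 separated members were Tap1, the peptide transporter, Psmb8, an immunoproteasome subunit, and Nlrc5, the class I transactivator, with lowest pairwise folds of 2.31, 2.08 and 2.99. The heavy chains H2-K1 and H2-D1 lay 1.90-fold to 2.51-fold and 1.79-fold to 2.45-fold above Confetti. H2-Q7, a nonclassical heavy chain that shares sequence with H2-Q6, stood at 23.6 and 22.4 CPM in Confetti and at 205 and 100.0 CPM in the neighbours. B2m had a UMI in 53% and 44% of Confetti cells and in 81.7% and 82.5% of neighbour cells. Of 8 MHC class II genes, which AT2 cells also make, 0 were separated, 3 stood above both Confetti libraries in both neighbour libraries and 0 below (23.9% and 25.7% of all genes), and the median log2 ratio was 0.25. Cd74, their invariant chain, stood at 6841 and 5736 CPM in Confetti and at 6319 and 7807 CPM in the neighbours, with overlapping groups. Ctss, a lysosomal protease of the class II pathway, stood at 3.95 and 2.82 CPM in Confetti and 5.92 and 176 CPM in the neighbours; in r2 the macrophage markers were high, and Ctss stood at 0.174 CPM there with the marker gate.

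Gzme and Dlk1, the leading 2 higher genes, are genes of the mutant state, and their UMIs came from few cells. The list holds 11 genes chosen with earlier results of these libraries known, so its direction is not independent evidence. Of these, 9 were tested, and Igf2 and H19 were too low: H19 had 0 UMIs in both RFP+ mutant libraries of 2 weeks, and Igf2 had 4 and 0. Of the 9, 7 were separated higher, all 9 stood above both Confetti libraries in both neighbour libraries (23.9% of all genes), and the median log2 ratio was 4.37. Gzme, a granzyme family serine protease at chr14:56117626-56120625, had 0 UMIs in both Confetti libraries and stood at 39.1 CPM in r1 and 60.5 CPM in r2. That is at least 199-fold higher, counting 3 UMIs in each library at 0. Dlk1, a Notch-related ligand at chr12:109452823-109463336, had 0 UMIs in both Confetti libraries and stood at 5.35 and 58.4 CPM in the neighbours, at least 27.2-fold higher. Mcpt2 and Mcpt8, mast cell protease family genes near Gzme, stood at 11.3 and 2.37 CPM and at 10.3 and 4.89 CPM in the neighbours, against 0 and at most 0.0655 CPM in Confetti. The division of UMIs between family members of this protease cluster may be uncertain and was not tested. Spp1, which encodes the matrix cytokine osteopontin, stood at 7.78 and 11.7 CPM in Confetti and at 76.9 and 251 CPM in the neighbours. With the marker gate Spp1 stood at 0.455 and 0.282 CPM in Confetti and at 74.5 and 174 CPM in the neighbours, so most of its Confetti UMIs lay in the barcodes that the gate removed. In the RFP+ mutant libraries of 2 weeks, Gzme stood at 609 and 216 CPM, Dlk1 at 369 and 331 CPM and Spp1 at 2028 and 1194 CPM.

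Gzme was found in 17 of 4306 r1 cells (0.395%, exact interval 0.230% to 0.631%) and in 21 of 1138 r2 cells (1.85%, 1.15% to 2.81%), and in 0 of 3914 and 0 of 4121 Confetti cells, which allows shares of cells with a UMI of up to 0.0942% and 0.0895%. These bounds limit detection at the depth of the libraries, and do not limit the share of cells that express the gene. The 17 r1 cells held 56.4 Gzme UMIs each on average and the 21 r2 cells 19.4. Cells were therefore counted as carriers when they held UMIs of at least 2 different mutant-state genes, a definition made after these values were seen. There were 4 carriers in Confetti RFP (0.102%), 8 in Confetti YFP (0.194%), 21 in r1 (0.488%) and 43 in r2 (3.78%). The Confetti carriers and the neighbour carriers were unlike each other. All 4 and all 8 Confetti carriers were removed by the marker gate and 0 of them had an Epcam UMI. Of the neighbour carriers the gate removed 3 in each library, and 18 of 21 and 39 of 43 had an Epcam UMI. Among RFP+ mutant cells of 2 weeks, 33.5% and 38.6% were carriers.

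**Figure D3:**
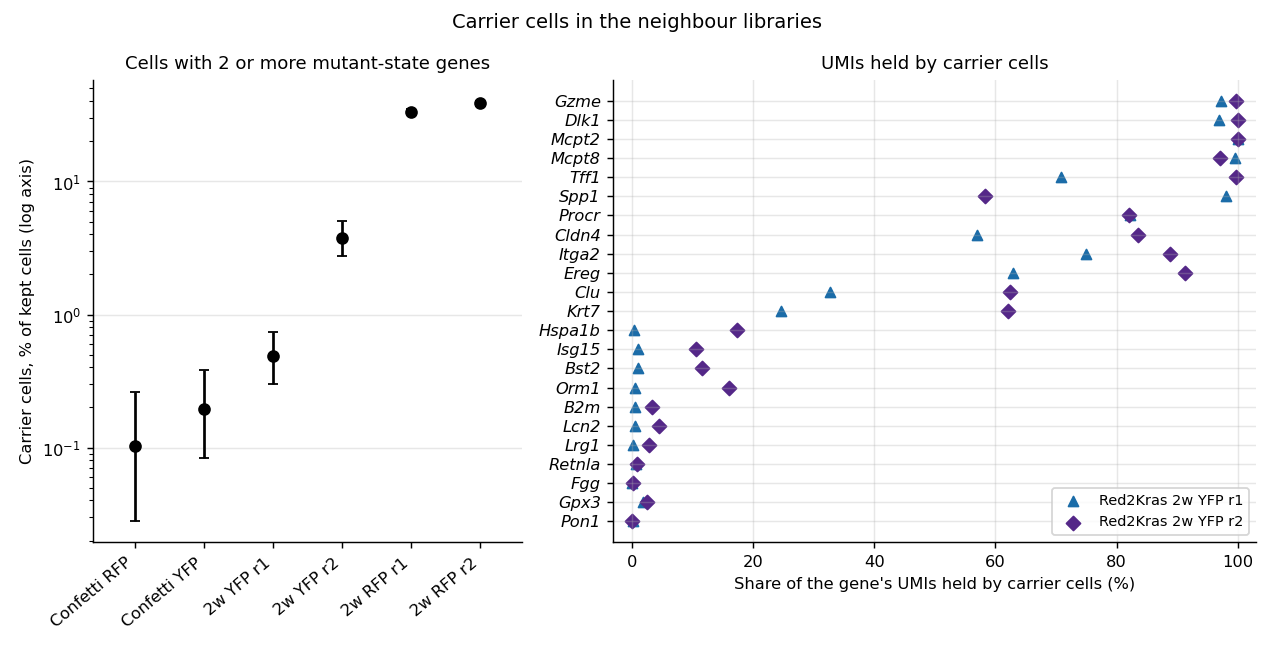
Left, share of kept cells that are carriers (UMIs of at least 2 mutant-state genes, log axis) with exact 95% intervals, in the 4 libraries and the 2 RFP+ mutant libraries of 2 weeks; right, share of each gene's UMIs that carriers hold in r1 and r2. Carriers make up 0.102% of cells in Confetti RFP and 3.78% in r2. They hold over 95% of the Gzme, Dlk1, Mcpt2 and Mcpt8 UMIs, which follows in part from the definition, since these genes define carriers. They hold under 5% of the UMIs of Lcn2, Lrg1, Retnla, Fgg, Gpx3 and Pon1.

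The neighbour carriers held many UMIs and little Sftpc. Their median was 12016 UMIs in r1 and 14788 in r2, against 5828 and 6492 in the other cells of those libraries. Sftpc made up a median of 0.0779% and 3.30% of their UMIs, against 13.7% and 17.5% in the other cells. Carriers held 97.3% and 99.8% of the Gzme UMIs of r1 and r2, 96.9% and 100% of Dlk1, and 98.1% and 58.4% of Spp1. These genes are among those that define a carrier, so their shares follow in part from the definition. Procr and Tff1 are not. Of Procr, the endothelial protein C receptor gene, carriers held 82.2% and 82.0%. Of Tff1, a trefoil peptide found in only 3 and 5 cells, carriers held 70.8% and 99.7%. They held 0.065% and 0.18% of Fgg, 0.50% and 4.44% of Lcn2, 0.74% and 0.81% of Retnla, and 1.15% and 9.64% of all autosomal UMIs. Without carriers, 227 of the 313 higher genes with more than 3 UMIs stayed separated, as did 228 of the 259 lower genes. Of the 15 leading higher genes 9 stayed separated, and Gzme, Dlk1, Procr, Spp1, Tff1 and Pglyrp1 did not. Pglyrp1, a peptidoglycan recognition protein, stood at 16.2 and 13.6 CPM in Confetti and at 180.2 and 68.3 CPM in the neighbours, and at 175 and 24.6 CPM in neighbours without carriers. The primed AT2 list then had 8 separated members at a median log2 ratio of 1.08 and the interferon list 6 at 1.15. The mutant-state list, whose own genes chose the carriers, had 0 at 0.57, which the choice of cells fixes and which is given as a description. Whether the carriers are wildtype cells, RFP+ cells within the YFP gate or doublets was not tested, and no doublet caller was run. The carrier-held part of the Gzme, Dlk1, Spp1, Procr and Tff1 levels therefore cannot be assigned to wildtype neighbours.

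Transitional state genes were divided between carriers and the rest. Of 19 members, 5 were separated higher, 14 stood above both Confetti libraries in both neighbour libraries (23.9% of all genes), and the median log2 ratio was 1.12. Without carriers the median was 0.35. In that setting 4 members were separated higher, with more than 3 UMIs required, as were 240 of all 14342 genes. Cldn4, a tight junction claudin, stood at 1.07 and 2.23 CPM in Confetti and at 10.4 and 41.3 CPM in the neighbours, and at 4.54 and 7.54 CPM in neighbours without carriers. Clu, which encodes the chaperone clusterin, stood at 183 and 168 CPM in Confetti and at 696 and 1431 CPM in the neighbours, and at 474 and 594 CPM without carriers. Clu was found in 40.7% and 37.0% of Confetti cells and 71.8% and 62.0% of neighbour cells, and after thinning to 2000 UMIs in 24.0%, 25.2%, 43.8% and 35.9%. Barcodes with a Ptprc UMI had Clu in 6.06%, 14.3%, 20.9% and 2.80% of cases in the same order. Carriers held 32.8% and 62.5% of the Clu UMIs of r1 and r2. Itga2, an integrin chain that binds collagen, stood at 0.376 and 0.524 CPM in Confetti and 5.23 and 23.7 CPM in the neighbours, with 75% and 88.8% of the neighbour UMIs in carriers. Procr stood at 0.502 and 0.72 CPM in Confetti and 4.82 and 64.9 CPM in the neighbours. AW112010 was the fifth separated member and lost that place with the marker gate, although its mean log2 ratio was 1.67 there against 1.56 in all cells. The keratin that names the state, Krt8, stood at 315 and 282 CPM in Confetti and at 422 and 399.7 CPM in the neighbours, and r2 stood at 289 CPM without carriers, inside the Confetti range. Krt7 stood at 70.9 and 63.1 CPM in Confetti and at 139.7 and 423 CPM in the neighbours, with 62.1% of the r2 UMIs in carriers.

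Genes of growth factor signalling and growth arrest lay on both sides of Confetti. Of 19 genes of the EGFR and ERK list, 8 stood above and 7 below both Confetti libraries in both neighbour libraries (23.9% and 25.7% of all genes). Of these genes 2 were separated higher with all cells, Ereg and Etv4, beside 2.58% of all genes, and 0 without carriers. The mean log2 ratio of Etv4, a transcription factor, was 2.39 with all cells and 1.23 without carriers. Ereg, an EGFR ligand, stood at 0.502 and 0.655 CPM in Confetti and at 7.92 and 11.9 CPM in the neighbours, and carriers held 62.9% and 91.3% of the neighbour UMIs. Areg, a related ligand, stood at 168 and 117 CPM in Confetti and at 374 and 248 CPM in the neighbours, and r2 stood at 109 CPM without carriers. The feedback inhibitor Dusp6 was not separated. Cdkn2a, which encodes cell cycle inhibitors, was the 1 separated gene of 13 on the growth arrest and p53 list, of which 3 stood above and 6 below both Confetti libraries, at 0.69 and 0 CPM in Confetti and 2.94 and 10.5 CPM in the neighbours, and r1 and r2 stood at 0.0826 and 4.76 CPM without carriers. Cdkn1a stood at 203 and 205 CPM in Confetti and at 202 and 142 CPM in the neighbours.

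AT1 and AT2 identity genes lay closer to Confetti. Of 17 AT1 genes, Pdpn and Akap5 were separated higher and Cav1 lower, and 5 stood above and 4 below both Confetti libraries. The median log2 ratio was 0.21, or 0.48 with the marker gate. As ratios to the Confetti mean, the medians of r1 and r2 had opposite signs, 0.19 and -0.15. Pdpn, a mucin-type AT1 surface protein, stood at 2.13 and 2.88 CPM in Confetti and at 9.59 and 18.2 CPM in the neighbours, and stayed separated with the gate and without carriers. Ager, the most used AT1 marker, lay 1.23-fold to 1.84-fold above Confetti. Cav1, a caveolar coat gene that endothelial cells also express, stood at 28.5 and 37.3 CPM in Confetti and at 10.7 and 4.45 CPM in the neighbours and was not separated with the marker gate. Of 20 AT2 identity genes, 0 were separated in either direction, 3 stood above and 10 below both Confetti libraries in both neighbour libraries (23.9% and 25.7% of all genes), and the median log2 ratio was -0.14. Sftpc lay 1.15-fold to 1.78-fold above Confetti and Sftpb 0.878-fold to 1.02-fold. Etv5, an AT2 transcription factor, stood at 349.9 and 416 CPM in Confetti and at 269 and 229 CPM in the neighbours. Fgfr2, a receptor that maintains AT2 cells, stood at 251 CPM in each Confetti library and at 178 and 122 CPM in the neighbours.

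Most detoxification and antioxidant genes stood lower in the neighbours. Of 25 tested, 6 were separated lower and 0 higher, 16 stood below both Confetti libraries in both neighbour libraries (25.7% of all genes), and the median log2 ratio was -0.89. Airway secretory markers had values in the same direction: 3 of 6 stood below both Confetti libraries in both neighbour libraries and 0 above, with a median log2 ratio of -1.46, or -0.94 with the marker gate. Their summed level did not show this, since Scgb1a1 was highest in r2. Cyp2f2 is on both lists, airway secretory cells also express Cbr2, and the part of these cells in the result was not tested. Gpx3, a secreted glutathione peroxidase at chr11:54902453-54910377, stood at 94.8 and 94 CPM in Confetti and at 6.29 and 5.93 CPM in the neighbours, 0.0626 to 0.0669 times the Confetti level (log2 difference -3.94, SE 0.83). It had a UMI in 23.9% and 22.0% of Confetti cells and in 2.69% and 2.90% of neighbour cells. Pon1, a paraoxonase, stood at 112 and 80.9 CPM in Confetti and at 14.8 and 8 CPM in the neighbours, and its share of cells at 25.4%, 20.4%, 6.22% and 2.64%. Cbr2, a lung carbonyl reductase and the most abundant of the 6, stood at 3570.3 and 3347 CPM in Confetti and at 1504 and 1140.1 CPM in the neighbours. It was found in 98.1% and 97.5% of Confetti cells and in 90.9% and 77.2% of neighbour cells. Fmo2 and Fmo1, flavin monooxygenases, and Aldh3a1, an aldehyde dehydrogenase, were the remaining 3. Fmo1 and Aldh3a1 were not separated with the marker gate. The mean log2 ratio of Fmo1 went from -2.89 to -1.37 with the gate, while that of Aldh3a1 went only from -1.17 to -1.14. Fmo2 was higher, not lower, when only female cells were compared, at a log2 ratio of 0.48 against -2.07 in all cells. Gpx1 and Hmox1 went the other way without reaching the fold rule, Gpx1 at 1.43-fold to 1.69-fold and Hmox1 at 1.82-fold to 2.33-fold above Confetti. Gstm2, a glutathione transferase outside the list, stood at 19.6 and 21.9 CPM in Confetti and at 8.33 and 8.74 CPM in the neighbours.

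Other leading lower genes had varied roles. Pdlim4, an actin-associated PDZ and LIM protein at chr11:54054928-54069014, stood at 21.1 and 19.8 CPM in Confetti and at 0.98 and 1.63 CPM in the neighbours (log2 difference -4.02, SE 0.56, edgeR adjusted p = 0.501). Chia1, an acidic chitinase, stood at 580.0 and 401 CPM in Confetti and at 161 and 119 CPM in the neighbours. Cd36, a fatty acid transporter, stood at 1339 and 1522 CPM in Confetti and at 654 and 366 CPM in the neighbours. Myh7, a myosin heavy chain, stood at 70.5 and 79.5 CPM in Confetti and at 13.4 and 16 CPM in the neighbours. AY036118, a transcript model in a ribosomal RNA region, stood at 120.2 and 81.3 CPM in Confetti and at 7.55 and 10.7 CPM in the neighbours, and its reads may be of ribosomal origin. Ccnb1ip1, a ubiquitin ligase of meiotic recombination, stood at 42.3, 79.2, 4.69 and 3.56 CPM in Confetti RFP, Confetti YFP, r1 and r2. All 15 leading lower genes stayed separated without carriers. Of the 27 lower genes with at least 20 CPM, 9 lost their place with the marker gate, among them the endothelial genes Calcrl, Ramp2 and Cdh5. Endothelial and mesenchymal marker sums were both higher in the Confetti libraries.

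Heat shock and immediate early genes differed between the 2 neighbour libraries. Of 16 heat shock genes, 12 stood above both Confetti libraries in both neighbour libraries and 0 below (23.9% and 25.7% of all genes), 2 were separated higher, and 14 stood higher in r1 than in r2. Over all genes 49.75% stood higher in r1 than in r2, with levels floored at 0.5 CPM. Their median log2 ratio to Confetti was 1.33 in r1 and 0.35 in r2. Hspa1b and Hspa1a are near-identical inducible HSP70 genes, so the division of UMIs between them is uncertain. Hspa1b stood at 137 and 129.8 CPM and Hspa1a at 174 and 167 CPM in Confetti. In the neighbours Hspa1b stood at 1973 and 349 CPM and Hspa1a at 1920.4 and 453 CPM. Dnajb1, a cochaperone, stood at 57.1 and 63.1 CPM in Confetti and at 453 and 100.2 CPM in the neighbours. Of 19 immediate early genes, 8 stood above and 2 below both Confetti libraries in both neighbour libraries, 2 were separated higher, Klf2 and Egr2, and 17 stood higher in r1 than in r2, with medians of 1.32 and 0.018. Egr2 was not separated with the marker gate, where its mean log2 ratio was 0.66 against 1.94 without it. Egr1 stood at 69.4 and 100.3 CPM in Confetti, 521 CPM in r1 and 108 CPM in r2, and Fos at 398, 474, 1507 and 547 CPM in the same order. Klf2, a zinc finger factor, stood at 47.1 and 52.1 CPM in Confetti and at 276 and 116 CPM in the neighbours. Both lists hold fast stress-response genes, and the share of each library in these differences is shown in the plot of r1 against r2.

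**Figure D4:**
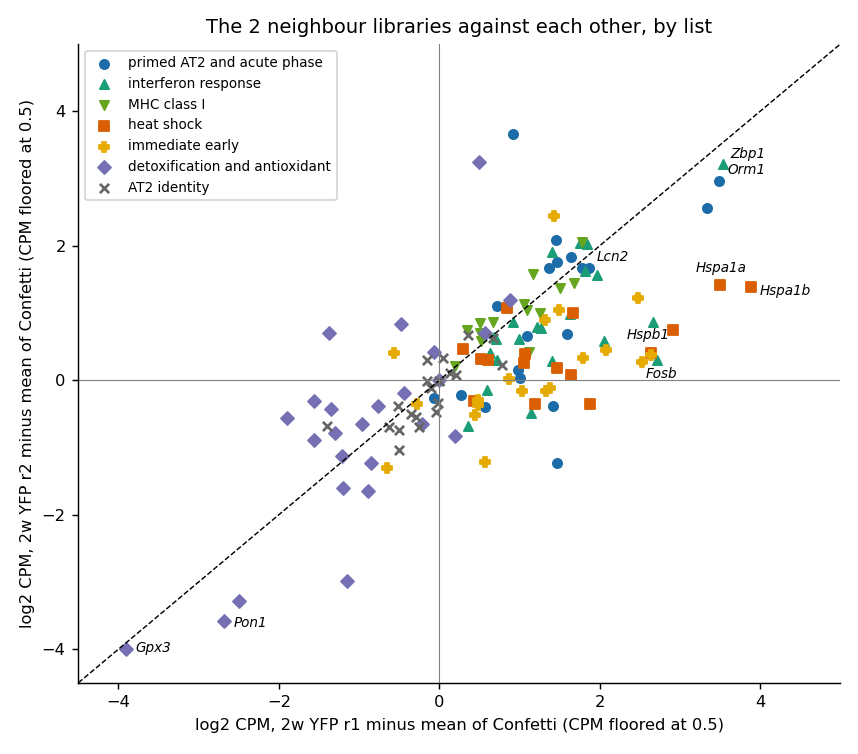
Log2 ratio to the Confetti mean of the members of 7 lists, r1 on the horizontal and r2 on the vertical axis, with CPM floored at 0.5; the dashed line marks equal ratios. Heat shock and immediate early genes lie mostly below the line, with 14 of 16 and 17 of 19 higher in r1, whereas Gpx3 and Lcn2 lie near it.

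Other lists leaned to 1 library as well. Of 23 cell cycle genes 20 stood higher in r1 than in r2, and their medians had opposite signs, 0.43 in r1 and -0.43 in r2. IL-1 and NF-kB genes, with 18 of 23 higher in r1, had medians of 0.61 and -0.08. Interferon genes, with 19 of 23 higher in r1, had medians of 1.27 and 0.64, on the same side of 0. Primed AT2 genes had medians of 1.39 in r1 and 0.89 in r2, and MHC class I genes 1.07 and 0.93. Detoxification genes had medians of -0.97 and -0.66. The transitional list was the reverse, at 0.68 in r1 and 1.71 in r2, with 5 of 19 members higher in r1. The immediate early median was 0.58 over all 4 pairings and 1.32 in r1 alone, and the detoxification median was -0.89 over all pairings and -0.66 in r2 alone. The medians of single libraries are ratios to the Confetti mean with levels floored at 0.5 CPM. They therefore differ from the medians over 4 pairings in more than the library left out.

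Several lists held few or no separated genes. Of 23 cell cycle genes, 0 were separated and 7 stood above and 3 below both Confetti libraries in both neighbour libraries (23.9% and 25.7% of all genes), with a median log2 ratio of 0.07, r1 and r2 having medians of opposite sign. Mki67, the proliferation marker, stood at 16.2 and 19.6 CPM in Confetti and at 16 and 10.8 CPM in the neighbours. Of 23 IL-1 and NF-kB genes, 8 stood above and 3 below both Confetti libraries, and 1 was separated, Il1rn, the IL-1 receptor antagonist, at 0.251, 0.786, 2.25 and 8.15 CPM, and r2 stood at 0.174 CPM with the marker gate. The receptor Il1r1 stood at 20.9 and 18.4 CPM in Confetti and at 13.2 and 10.8 CPM in the neighbours. Of 24 sterol and fatty acid synthesis genes, 15 stood above both Confetti libraries in both neighbour libraries and 3 below, with a median log2 ratio of 0.30, or 0.32 with the marker gate and 0.34 without carriers. In this list 1 gene was separated, Scd1, the stearoyl-CoA desaturase that makes monounsaturated lipid, at 3339.8 and 3152 CPM in Confetti and 7123 and 8003 CPM in the neighbours. Fasn, the fatty acid synthase, lay 1.07-fold to 1.40-fold above Confetti. Of 74 cytosolic ribosomal protein genes, 0 were separated, 11 stood above and 1 below both Confetti libraries, with a median log2 ratio of 0.24.

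**Figure D5:**
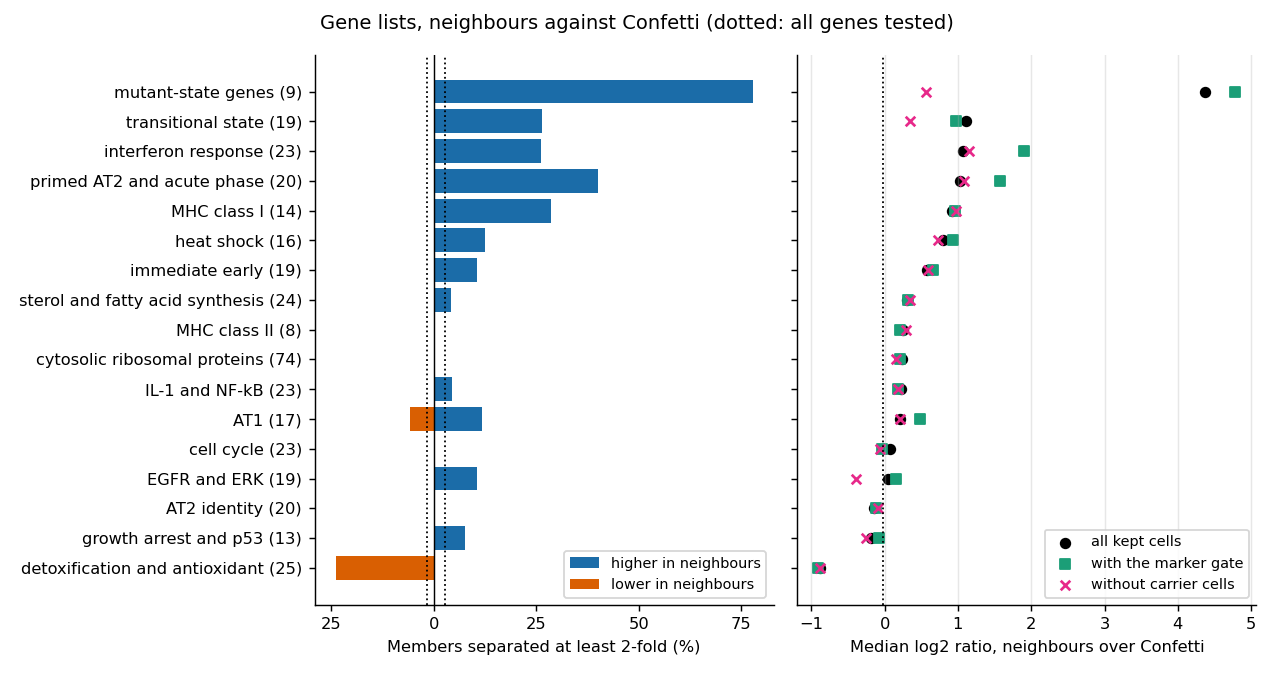
Left, percentage of the tested members of 17 lists (numbers in brackets) that were separated higher or lower, with dotted lines at the background of 2.58% and 1.81%; right, median log2 ratio with all cells, with the marker gate and without carriers. All medians except those of the cell cycle list and the EGFR and ERK list stay on their side of 0 in all 3 settings. The carriers were chosen by the mutant-state genes, so the value of that list without them follows from the choice.

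The sex of the cells was balanced only by using female cells. The female cells of r1, 596 in number, were compared with female Confetti cells, and r2 was left out because it had 2 such cells. These cells are part of the r1 sum, and the leading genes were chosen on that sum against the same all-female Confetti libraries, so the counts that follow are in large part fixed by the choice and are given as a description. All 15 leading higher genes stood at least 2-fold higher in female r1 cells than in both Confetti libraries, as did 10.8% of all genes. Of the 1547 genes in that share, 651 had more than 3 UMIs. Female r1 cells held 3261557 autosomal UMIs, against 13575035 and 11250799 in Confetti. Their floor was therefore higher, which raises the ratios of genes with few UMIs. Of 15 leading lower genes, 11 stood at least 2-fold lower, as did 1.93% of all genes. Of the 15 leading higher genes, 6 were the ones that were not separated without carriers. Among these 6, Gzme rested on 783 UMIs, Procr on 10 and Tff1 on 4 in female r1 cells. Log2 ratios in female cells were 4.44 for Fgg, 3.51 for Orm1, 2.22 for Retnla, 1.63 for Lcn2, 1.57 for Lrg1, -3.02 for Gpx3 and -3.42 for Pdlim4. Fmo2 went the other way at 0.48, and Gstm2 stood at -0.41, Cthrc1 at -0.59 and Vps33b at -0.96. Several interferon and class I genes lay closer to Confetti in female cells than in all cells: the log2 ratio was 1.10 against 1.93 for Bst2, 0.89 against 1.90 for Isg15, 0.09 against 0.89 for Irf7 and 1.06 against 1.56 for B2m. Hmox1 stood at 0.06 against 1.04. The medians in female cells were 0.92 for primed AT2, 0.82 for interferon, 0.54 for MHC class I and -0.60 for detoxification genes. Some lists changed sign, among them MHC class II at -0.15 against 0.25 and cytosolic ribosomal proteins at -0.05 against 0.24. Sterol and fatty acid synthesis stood at 0.10 against 0.30 and the transitional list at 0.61 against 1.12, while immediate early genes rose, at 1.01 against 0.58.

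The YFP+ libraries of 4 days, 1 of each replicate number, give the same genes at an earlier time against the same Confetti libraries, so the comparisons are not independent. In these libraries the acute phase genes split by replicate: Fgg stood at 4.12 and 35.8 CPM in 4-day r1 and r2, Retnla at 76.3 and 1535 CPM, Lcn2 at 1941 and 7386 CPM and Lrg1 at 517 and 2527 CPM. The first of each pair was near Confetti and the second near the 2-week neighbours. Of sexed cells, 83.7% were female in 4-day r1 and 0.179% in 4-day r2, and all were female in Confetti, so replicate and sex of the pooled mice cannot be told apart in this split. Among lower genes, Pon1 stood at 40.9 and 4.37 CPM and Cbr2 at 3013 and 1001 CPM, again divided by replicate. AY036118 stood at 131 and 9.37 CPM, Fmo2 at 24.2 and 2.19 CPM and Gstm2 at 19.8 and 7.74 CPM. For these genes 4-day r1 was near or above Confetti. Every leading lower gene stood higher in 4-day r1 than in 4-day r2, except Cthrc1 at 17.9 and 18.05 CPM. Gpx3, at 10.9 and 2.44 CPM, and Pdlim4, at 1.67 and 0.812 CPM, were low in both. In the RFP+ mutant libraries of 2 weeks Gpx3 stood at 2.54 and 0.648 CPM and Pdlim4 at 3.61 and 3.37 CPM. Both genes were therefore lower than Confetti in all 6 Red2Kras libraries named here, mutant and wildtype. Both lie on chromosome 11, Pdlim4 starting at base 54054928 and Gpx3 at base 54902453. Confetti and Red2Kras are separate mouse lines, and the study's methods describe a mixed background. Mouse line and group therefore cannot be told apart for these genes.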

How the data were processed

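The authors deposited 10x Genomics 3′ matrices of UMI counts per gene and barcode, 1 per library, made with Cell Ranger 3.1.0 per the submitters' processing notes (5.0.1 per the file headers) on GRCm38. The labels name v2 chemistry and the methods v3. Barcodes were filtered by genes, UMIs, mitochondrial share and Ptprc as given in the report, doublets were not removed, and UMIs were summed per library. Each matrix lists 31053 genes, of which 31011 had a position in GENCODE M21 and 29100 lay on chromosomes 1 to 19. Sums of 7645088 to 66745629 autosomal UMIs in all 10 libraries were fitted with edgeR 4.0.16 in R 4.3.3. The fit used TMM, filterByExpr and the quasi-likelihood test, with Benjamini-Hochberg adjustment and a threshold of 0.05. Its contrast set the neighbours against the mean of both Confetti coefficients. DESeq2 1.42.0 was an alternative. The fit was tested on simulated counts, and no value given here rests on that test. Log2 ratios of lists are means of the 4 pairwise ratios, each library floored at 3 counts. Leading genes were the 15 in each direction that were separated with and without the gate, had at least 20 CPM in the higher group and no predicted-model name, ranked by the smallest pairwise ratio. For each list up to 4 members with the largest differences and the most abundant one were eligible for naming. Some genes were named outside this rule, after their values were seen, to describe a list. Libraries, lists and tests were chosen with earlier results of these data known. The carrier definition, the requirement of more than 3 UMIs and the gated 2-arm fit were chosen after the data were seen. Labels name no batch, and the methods state that libraries were made on more than 1 day. Tables were made with Python 3.11.15.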

Additional observations from a re-analysis of the deposited data

How the results depend on the processing

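No gene passed in the edgeR fits with the marker gate, Ptprc barcodes kept, cells thinned to 2000 UMIs, RLE size factors, the 4-day libraries left out or any 1 of the 4 libraries left out (0 to 0). Without the filter on low counts 92 of 20890 genes passed, DESeq2 called 43, the 4 libraries in 3 groups 37, in 2 arms 20, and in 2 arms with the marker gate 183. The contrast could not be paired, since the Confetti labels carry no replicate number. Same-numbered Red2Kras libraries deviated together with correlations of 0.0849 to 0.563, 5 of 6 over 0.1. With a replicate block 0 genes passed, with 1773 at an unadjusted p under 0.05. The 370 genes separated higher became 1547 in female cells alone (651 with more than 3 UMIs), 624 with r1 alone and the gate, and 519 to 1547 with 1 library left out (1251 of the 1547 without r1 with more than 3 UMIs). With more than 3 UMIs required, the count was 313, and 240 when carriers were also removed. The 259 separated lower became 121 with the gate, 118 after thinning, and 327 to 996 with 1 library left out. Leaving out a library leaves fewer pairs to satisfy. Of 1174 values of the 98 named genes under these alternatives, 1032 lay within the spread between replicates, 141 moved beyond it and 1 reversed, Fmo2 at a log2 ratio of 0.484 in female cells against -2.07 in all cells; the cause was not tested. The AT1 median was 0.21 over all pairings. It was 0.19 in r1 alone and -0.15 in r2 alone, as ratios to the Confetti mean floored at 0.5 CPM. The depth of r2 limits genes under its level of 3 UMIs, 0.445 CPM after TMM scaling.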
